A study of Mus musculus with 10 samples.

Results

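Chromatin accessibility of group 2 innate lymphoid cells (ILC2s) was compared between mucosal barrier tissues and internal tissues. The mucosal side held the lung, large intestine (LI) and small intestine (SI), with 6 libraries, and the internal side held the bone marrow (BM) and pancreas, with 4 libraries. These are all 10 libraries of the series, 2 for each of 5 tissues. The sides were set by the tissue labels alone and not by any measured value. The mice were wild-type C57BL/6 males of 6 weeks, and each library was made from 50000 sorted cells. Cells of 16 mice were combined for a library of BM, lung or pancreas, and cells of 10 mice for a library of either intestine. The measure is ATAC-seq, in which the Tn5 transposase cuts open DNA, and reads pile up where chromatin is accessible. Counts were given for 50039 regions, of which the 49981 with at least 1 count were tested.

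Several features of the cell isolation changed together with the tissues. Lung, LI and pancreas shared a gate (CD45, CD127, ST2 and CD25) and a sorter. SI was gated by Thy1 and KLRG1 in place of ST2 and CD25, and BM, gated by ST2 and CD25 without CD45 and CD127, went through another sorter. The lineage markers left out of all gates were CD3, B220, CD11b, FcεRI and CD11c, with no erythroid marker. Pancreas was digested for 30 min, lung for 60 min and both intestines for 90 min, and BM was taken without digestion, so the time in enzyme was longer on the mucosal side. The digestion time and the side of the contrast cannot be told apart with these libraries. Pools of mice limit what a library stands for, since the spread between mice is not seen. Total counts per library ranged from 10282987 to 32797872, and the single region with the most reads took between 1.78% and 9% of them. The chi-square statistic between replicates was 12.8 to 56.1 per degree of freedom, above the value of 1 that counting noise alone would give.

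ILC2s are tissue lymphocytes without antigen receptors that respond to epithelial alarmins such as IL-33 and IL-25 and release type 2 cytokines. They arise from BM progenitors, and GATA3 and RORα are required for their development. In barrier tissues they sit beside epithelium, nerves and the microbiota, and they take on tissue-dependent programmes there. Open regions outside promoters often act as enhancers, which bind transcription factors through short sequence motifs.

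The labelled cell type was checked at the promoters of ILC2 identity genes. A promoter region was found for 10 of the 12 genes, and 8 of these 10 did not pass the test of mucosal against internal tissues. At the Gata3 promoter, accessibility in CPM (counts scaled to an equal library size) was 56.6 and 50.9 in BM, 50.8 and 49.9 in pancreas, 41.8 and 53.3 in lung, 41.9 and 49.9 in LI, and 46.8 and 46.8 in SI. The promoter of Il1rl1, which encodes the IL-33 receptor ST2, was lower on the mucosal side, by a log2 difference of −1.42 ± 0.21 (SE, edgeR quasi-likelihood test, adjusted p = 2.27e-04). This came from the intestine, with 5.67 and 7.39 CPM in LI and 2.84 and 3.03 in SI, whereas lung (15.1 and 24.1) lay in the range of BM (22.6 and 13.0) and pancreas (27.0 and 15.2). The Klrg1 promoter was higher on the mucosal side (0.83 ± 0.18, adjusted p = 0.00428), yet it had 7.58 and 8.70 CPM in BM and 53.0 and 55.4 CPM in pancreas, and all 6 mucosal libraries (22.4 to 50.9) lay between them. Both genes encode proteins used in the sorting gates of some of these tissues.

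Markers of other cells were read in the same libraries. Summed over promoter regions, T cell markers had 5.80 to 13.9 CPM in internal and 8.89 to 13.8 CPM in mucosal libraries. B cell markers had 5.77 to 8.41 CPM in internal and 5.10 to 38.3 CPM in mucosal libraries, with the highest value in SI replicate 1. No region of the table had Cd79a, Ms4a1, Pax5, Cd8a, Foxp3, Csf1r or Lyz2 as its nearest gene. Other members of the same lists did, with 3 regions each at Cd3e, Cd79b, Ebf1 and Adgre1 and 4 at Spi1. A missing name does not show that a locus was closed, since a region there can be nearest to another gene. Neither the mast cell, basophil and eosinophil list nor the pancreatic acinar list had a promoter region in the table. ILC3 markers, summed over their 14 regions, had 55.8 to 81.6 CPM in internal and 66.3 to 154 CPM in mucosal libraries, and Il23r had no region.

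Erythroid genes stood out in BM. This list of 24 genes was drawn up after their regions had been seen among the leading differences. Its 16 promoter regions summed to 219 and 127 CPM in BM, 69.3 and 82.3 in pancreas, 59.5 and 57.7 in lung, 63.7 and 58.4 in LI, and 54.3 and 54.4 in SI. Of its 56 regions, 29 were lower and 0 higher on the mucosal side, where 7.67% of all regions were lower. In all tissue pairs 20 of the 56 were lower, against 4.52% of all regions. Without BM 4 of the 56 were lower, where 2793 of the 49981 regions were lower. The part of erythroid cells in the results below was not tested, and counts without BM are given beside the leading regions.

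Across all regions, 4853 were more accessible in mucosal than in internal ILC2s (9.71% of those tested) and 3834 were less accessible (7.67%), by edgeR's quasi-likelihood test at an adjusted p under 0.05. Median log2 differences were 0.95 and −0.95 in these sets and 0.00 over all regions. The contrast takes the mean of 3 tissues against the mean of 2, so a region can pass through a single tissue. A stricter set kept regions with the same direction in each of the 6 pairs of a mucosal and an internal tissue. By this rule 2245 regions were higher (4.49%) and 2257 were lower (4.52%). All 6 mucosal libraries lay above all 4 internal ones at 997 regions (1.99%) and below them at 1009 (2.02%), and 872 and 865 of these also passed the test.

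These tests measure differences between the 5 tissues against the spread of their 2 libraries. When the counts of each tissue were summed and 3 tissues were compared with 2, edgeR called 0 regions, with 3008 (6.02%) at an unadjusted p under 0.05. When libraries were the units and tissue was ignored, 146 were higher and 208 lower, and DESeq2 with tissue as factor called 5129 and 4315. The calls below therefore concern these 5 tissues.

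The tissue pairs contributed unequally. Among the higher regions the median log2 difference was 1.60 for LI minus BM, 1.52 for SI minus BM and 1.05 for lung minus BM. Against pancreas it was 0.69 for LI, 0.71 for SI and 0.24 for lung, and only 64.4% of the higher regions were higher in lung than in pancreas. Among the lower regions the medians were −1.46 for SI minus BM and −1.14 for SI minus pancreas, against −0.86 and −0.72 for lung. Scaling by library size alone, in place of the trimmed mean that was used, turned the split to 7554 higher and 2702 lower and moved the median of all regions to 0.15. With BM left out, the 3 mucosal tissues against pancreas gave 1069 higher and 2793 lower regions. Among lung, LI and pancreas, which shared a gate and a sorter, 1041 regions were higher and 1677 were lower.

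**Figure D1:**
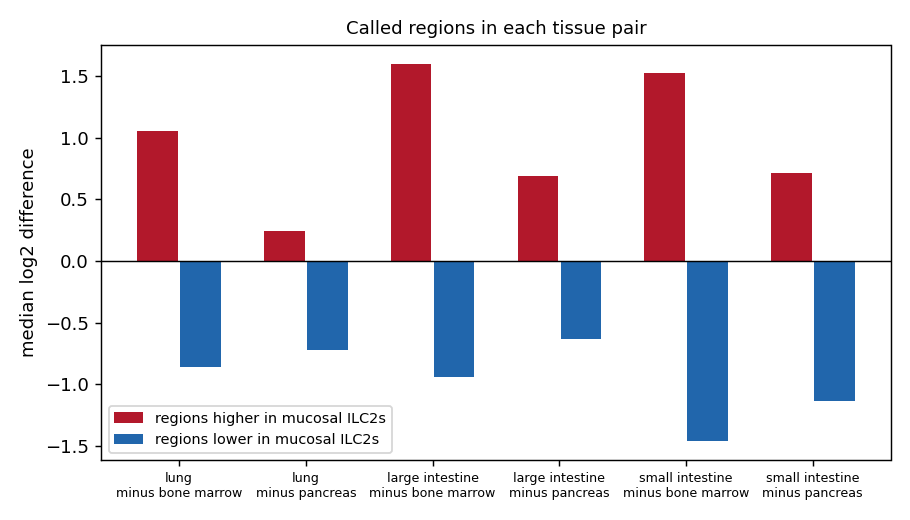
Median log2 difference of the 4853 higher (red) and 3834 lower (blue) regions in each of the 6 pairs of a mucosal and an internal tissue. Differences from BM were larger than those from pancreas for the higher regions, from 1.05 to 1.60 against 0.24 to 0.71.

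Regions that differed lay mostly outside promoters. Promoters made up 19.3% of the tested regions, 4.88% of the higher and 7.30% of the lower ones. Introns held 40.7% of all regions, 56.4% of the higher and 46.7% of the lower ones, and intergenic sequence held 32.6%, 35.1% and 42.1%. Promoter regions were called higher in 2.46% of cases and lower in 2.91%, and intron regions in 13.5% and 8.80%. The share of all counts that fell at promoters averaged 33.4% in the mucosal tissues and 32.5% in the internal ones, a difference of 0.861 percentage points (two-sided exact permutation test over 5 tissue means, p = 1.00, where 0.100 is the smallest p that 10 arrangements allow). BM (37.4%) and lung (37.2%) were alike in this share, as were LI (27.6%) and pancreas (27.7%).

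The leading regions are shown by their sequences first. The printed set holds 4 higher and 3 lower regions, taken from the named regions with the largest smallest difference over the 6 pairs, among those with libraries that did not overlap and with a call also within the shared gate. Each line gives the central 300 bases on the plus strand of GRCm38. Capitals mark matches on either strand to the GATA strings AGATAA or TGATAA, the AP-1 string TGANTCA or the RUNX string TGTGGTT, where N is any base.
Pxdc1 intron, higher, chr13:34644361-34644660: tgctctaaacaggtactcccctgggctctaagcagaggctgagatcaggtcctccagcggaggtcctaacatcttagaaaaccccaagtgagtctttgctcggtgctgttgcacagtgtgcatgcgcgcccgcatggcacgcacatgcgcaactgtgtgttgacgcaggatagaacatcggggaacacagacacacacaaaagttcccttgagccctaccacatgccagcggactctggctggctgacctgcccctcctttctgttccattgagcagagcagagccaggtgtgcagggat
Intergenic region nearest Zmat4, higher, chr8:23634910-23635209: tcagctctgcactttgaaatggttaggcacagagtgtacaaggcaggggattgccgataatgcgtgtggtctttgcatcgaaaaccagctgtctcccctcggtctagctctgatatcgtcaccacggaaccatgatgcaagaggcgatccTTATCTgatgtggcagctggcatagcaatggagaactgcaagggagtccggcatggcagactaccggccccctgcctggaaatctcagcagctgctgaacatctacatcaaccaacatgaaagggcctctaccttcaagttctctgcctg
Dkk3 intron, higher, chr7:112136604-112136903: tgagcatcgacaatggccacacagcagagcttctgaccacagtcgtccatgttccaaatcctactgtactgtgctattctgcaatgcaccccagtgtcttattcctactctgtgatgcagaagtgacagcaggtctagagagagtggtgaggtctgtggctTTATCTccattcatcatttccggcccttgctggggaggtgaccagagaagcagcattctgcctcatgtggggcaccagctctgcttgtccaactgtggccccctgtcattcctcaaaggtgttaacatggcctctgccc
Sdccag8 intron near Hmga2-ps1, higher, chr1:176827505-176827804: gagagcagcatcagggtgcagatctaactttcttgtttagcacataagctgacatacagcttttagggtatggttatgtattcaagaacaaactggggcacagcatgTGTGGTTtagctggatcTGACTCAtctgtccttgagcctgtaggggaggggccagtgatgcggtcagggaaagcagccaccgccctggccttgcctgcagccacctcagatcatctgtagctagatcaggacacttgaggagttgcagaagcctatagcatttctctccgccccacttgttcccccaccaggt
Intergenic region nearest Cep135, lower, chr5:76657569-76657868: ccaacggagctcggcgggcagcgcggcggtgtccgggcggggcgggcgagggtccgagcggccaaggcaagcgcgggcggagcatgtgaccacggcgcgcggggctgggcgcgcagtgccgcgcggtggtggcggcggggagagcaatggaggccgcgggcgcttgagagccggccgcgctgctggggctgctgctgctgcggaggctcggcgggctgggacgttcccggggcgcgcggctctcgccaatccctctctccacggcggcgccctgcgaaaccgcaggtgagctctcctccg
Zbtb16 intron, lower, chr9:48819652-48819951: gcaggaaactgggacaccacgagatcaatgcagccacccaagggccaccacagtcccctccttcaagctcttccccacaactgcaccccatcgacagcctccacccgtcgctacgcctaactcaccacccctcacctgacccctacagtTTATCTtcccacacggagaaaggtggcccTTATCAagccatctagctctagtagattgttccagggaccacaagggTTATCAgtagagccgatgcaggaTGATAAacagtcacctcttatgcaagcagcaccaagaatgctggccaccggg
Flrt3 promoter, lower, chr2:140671355-140671654: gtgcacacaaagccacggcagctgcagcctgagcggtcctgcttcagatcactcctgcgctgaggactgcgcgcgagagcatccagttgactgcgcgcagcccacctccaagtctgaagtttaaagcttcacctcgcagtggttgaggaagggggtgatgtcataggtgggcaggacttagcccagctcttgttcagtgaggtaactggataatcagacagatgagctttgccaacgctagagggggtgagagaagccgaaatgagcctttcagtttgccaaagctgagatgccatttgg
The lower Zbtb16 window held 4 GATA matches, and the higher Zmat4 and Dkk3 windows held 1 each. The Sdccag8 window held 1 AP-1 and 1 RUNX match. The windows of Pxdc1, Cep135 and Flrt3 held none of these strings. The full Cep135 region had a GC content of 73.0%, against a median of 49.8% over all regions.

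At the head of the higher regions stood an intron of Pxdc1 (chr13:34644257-34644763, coordinates of mm10 as the table gives them). It had 1.57 and 1.89 CPM in BM, 1.41 and 3.34 in pancreas, 12.4 and 11.5 in lung, 13.8 and 20.7 in LI, and 8.76 and 18.4 in SI. Every mucosal library lay above every internal one, with a log2 difference of 2.84 ± 0.28 (adjusted p = 1.05e-05), and the smallest of the 6 pair differences was 2.41. An intron of Dkk3, which encodes a secreted protein of the Dickkopf family of Wnt modulators, had 1.96 and 1.79 CPM in BM, 1.41 and 2.70 in pancreas, 6.04 and 10.2 in lung, 8.19 and 8.47 in LI, and 12 and 14.6 in SI (2.33 ± 0.24, adjusted p = 1.36e-05). In an intron of Col4a3, a type IV collagen chain of basement membranes, the internal libraries spanned 1.77 to 2.30 CPM and the mucosal ones 7.13 to 8.86 CPM (2.01 ± 0.20, adjusted p = 1.14e-05). The 3 mucosal tissues were at nearly one level there.

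The other leading higher regions were of the same kind. They lay in intergenic sequence nearest Zmat4 (2.60 ± 0.33), in an intron of Sdccag8 nearest to the pseudogene Hmga2-ps1 (2.36 ± 0.21), in Cyb5a (2.64 ± 0.27), which encodes the electron carrier cytochrome b5, in an intron of Ppm1h nearest to Mir8104 (2.15 ± 0.21), and in an intron of Kcnip2 nearest to Oga (2.21 ± 0.45). Libraries of the 2 sides did not overlap at 7 of the 8 regions, with Oga as the exception through lung replicate 2 (1.13 CPM). Within the shared gate 7 of the 8 passed the test, and without BM all 8 did. The 8 regions were chosen by their differences in the same libraries and pairs, so these counts are not a separate check.

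**Figure D2:**
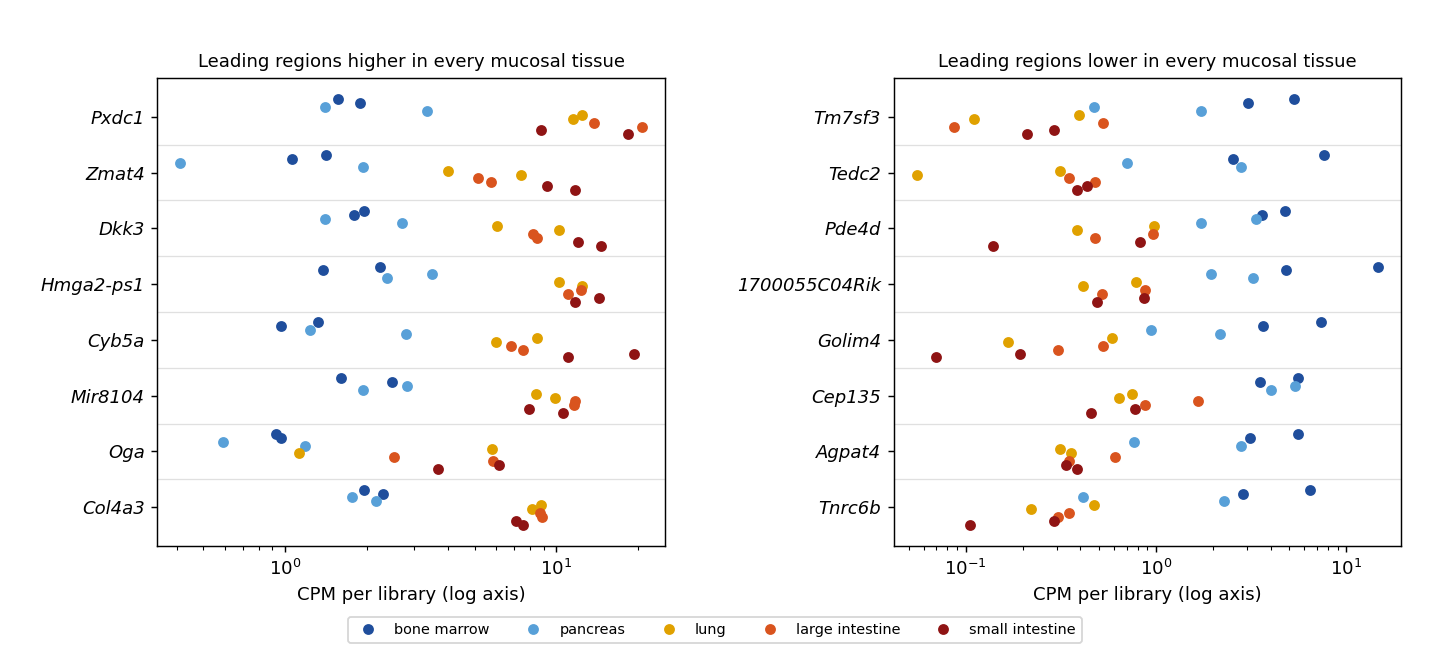
Accessibility in CPM on a log axis of the 8 leading regions higher (left) and lower (right) in every mucosal tissue, labelled by nearest gene, with a point for each of the 10 libraries. On the left 7 of 8 regions show a gap between the sides, and on the right BM replicate 1 is the highest library at all 8 regions.

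Leading lower regions held few reads in the mucosal libraries. They lay in introns of Tm7sf3, Ccnf (nearest gene Tedc2), Pde4d, Golim4, Agpat4 and Tnrc6b and in intergenic sequence nearest 1700055C04Rik and Cep135, with log2 differences between −2.47 and −3.43. BM replicate 1 was the highest of the 10 libraries at 8 of 8, and pancreas replicate 2 exceeded pancreas replicate 1 at 6 of 8. The pancreas replicates had this order also at 6 of the 8 leading higher regions and at 53.2% of all regions. Mucosal libraries held 2 to 25 reads at these regions, or 0.0552 to 1.66 CPM, so the size of these differences rests on few reads. At Golim4, for instance, BM had 7.34 and 3.64 CPM, pancreas 0.942 and 2.16, and the mucosal libraries 0.0697 to 0.588 (−3.43 ± 0.46, adjusted p = 1.23e-04). Only Cep135, near a gene for a centrosomal protein, passed within the shared gate (−2.36, adjusted p = 0.00350), with 5.58 and 3.50 CPM in BM, 5.36 and 3.99 in pancreas and 0.453 to 1.66 in the mucosal libraries. Without BM 3 of the 8 passed.

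Promoters that differed in every pair were few, 130 higher and 163 lower, and those named here were chosen after their values had been seen. Epas1, which encodes the hypoxia-inducible factor HIF-2α, had 30.9 and 30.8 CPM in BM, 35.6 and 27.2 in pancreas, 62.0 and 76.6 in lung, 60.3 and 72.0 in LI, and 84.1 and 79.9 in SI. The sides did not overlap (1.21 ± 0.13, adjusted p = 2.09e-05), and the difference was 1.10 within the shared gate (adjusted p = 9.19e-04). The promoter of Tnk2, a non-receptor tyrosine kinase, rose from 5.43 and 7.91 CPM in BM and 13.3 and 11.9 in pancreas to 41.6 and 49.9 in lung, 22.9 and 32.1 in LI and 15.5 and 24.4 in SI (1.68 ± 0.18, adjusted p = 2.13e-05). Basp1 (0.79 ± 0.17) and Gm35155 (1.39 ± 0.23) also had higher promoters without overlap. On the lower side, Zbtb16, which encodes PLZF, a factor of ILC progenitors and innate-like lymphocytes, had 20.2 and 24.0 CPM in BM, 14.1 and 15.4 in pancreas, and 5.52 to 8.19 in the mucosal libraries (−1.52 ± 0.16, adjusted p = 1.76e-05). Flrt3, a cell adhesion protein, had 4.75 and 9.16 CPM in BM, 15.8 and 10.5 in pancreas, and 2.21 to 3.72 in the mucosal libraries (−1.65 ± 0.23, adjusted p = 1.71e-04). These 2 promoters were the only ones of the 8 leading lower promoters that passed within the shared gate. Of the other 6, Aqp1, a water channel of red cells, belongs to the erythroid list, with 8.56 CPM in BM replicate 1 and at most 0.722 CPM in the mucosal libraries.

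**Figure D3:**
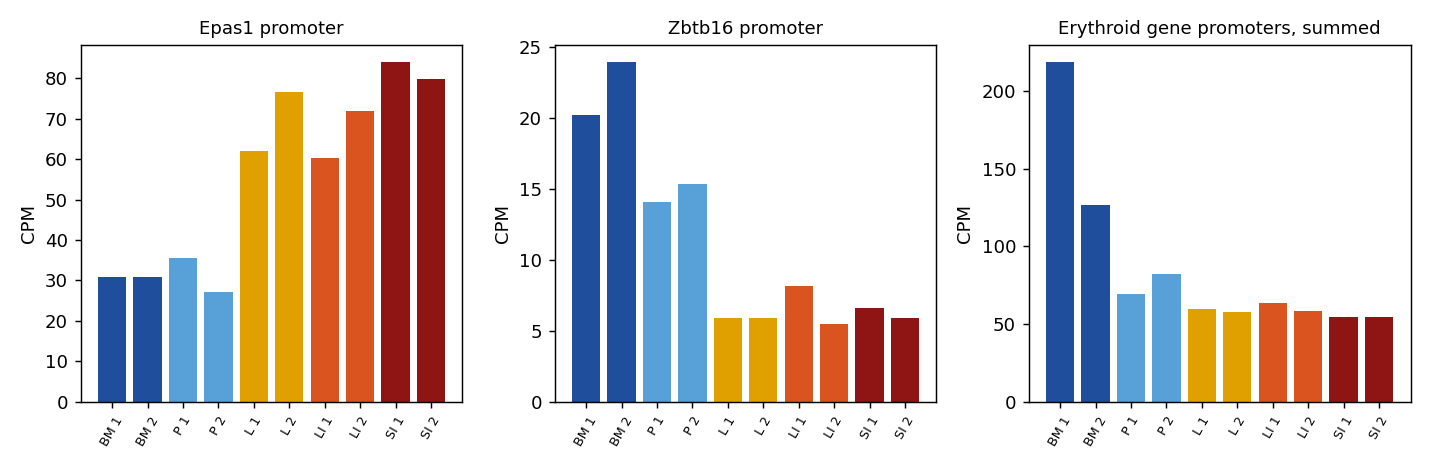
CPM in each library at the Epas1 promoter, at the Zbtb16 promoter and summed over 16 promoter regions of erythroid genes (BM, bone marrow; P, pancreas; L, lung; LI and SI, large and small intestine). Epas1 and Zbtb16 separate the mucosal from the internal libraries, whereas the erythroid sum is highest in BM, at 219 and 127 CPM.

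Differences gathered at some loci. Each region was given the name of the gene whose start lay closest. This assignment says nothing of the gene that a region regulates, and the loci were ranked after the values had been seen. Regions of a locus are not independent of each other. At Irf4, a factor of lymphocyte activation and differentiation, 14 of 24 regions were higher in every pair and 0 lower, with a median log2 difference of 1.13 over the 24. All 9 regions at Dusp4, a MAP kinase phosphatase, were higher in every pair, between 0.57 and 2.48. The other leading loci were Rasgrp1 (10 of 29), an activator of Ras, Atxn1 (10 of 33), Ankrd6 (9 of 13), Gm14010 (9 of 24), Lamc1 (8 of 14), a laminin chain, Zmat4 (7 of 8), Dkk3 and Il10 (7 of 11 each), Epas1 (7 of 13) and Rapgef1 (7 of 15). In the other direction, 11 of 14 regions at Zbtb16 were lower in every pair (median −1.38) and 13 passed the test. Aff3 had 9 of 14 (median −1.51) and Mir6546 6 of 8 (median −0.78). Of the loci with 5, Ptger3, a receptor for prostaglandin E2, had 5 of 5 (median −1.66). At Dad1, beside the T cell receptor alpha locus, 8 of 37 were lower and 1 was higher in every pair. In all, 1514 of 16807 genes had a region higher in every pair, 1710 had a region lower in every pair, and 221 had both.

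Gene groups were then read by their regions, with 9.71% higher and 7.67% lower over all regions as the comparison. The lists share genes, and no set was tested. Of the 68 regions named from the lists, 37 had libraries that did not overlap, against 1.99% above and 2.02% below over all regions. Within the shared gate 20 of the 68 passed, where 1041 of the 49981 regions were higher and 1677 lower. The 68 were chosen for a call with the same direction in all 6 pairs, so both counts follow in part from that choice. A region is named for its size in the 6 pairs and does not stand for the other regions of its gene. Among ILC transcription factors, 78 of 433 regions were higher (18%) and 42 were lower (9.70%), with a median of 0.12. An Epas1 intron rose from 2.54 and 1.79 CPM in BM and 1.24 and 1.40 in pancreas to 5.61 and 6.68 in lung, 9.15 and 10.4 in LI and 12.3 and 18.4 in SI (2.53 ± 0.22, adjusted p = 4.63e-06). Ikzf2, which encodes Helios, had a higher intron region (2.4 ± 0.29), and Tox, a factor of ILC development, another (1.76 ± 0.41). Libraries overlapped at the Tox region, with 1.11 CPM in SI replicate 1 and up to 1.40 in the internal libraries. The Tox region passed within the shared gate (1.55, adjusted p = 0.0431) but not without BM (1.55, adjusted p = 0.115). A Zbtb16 intron had 19.1 and 27.9 CPM in BM, 13.8 and 12.6 in pancreas, and 3.01 to 7.08 in the mucosal libraries (−1.86 ± 0.21, adjusted p = 3.47e-05). Of the RUNX genes, Runx1 had 6 higher regions of 30 and Runx3 6 of 21, with 0 lower at either. At Bach2, a repressor that holds lymphocytes in a resting state, 13 of 29 regions were lower and 2 were higher, but 1 was lower in every pair.

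In the interferon response list the higher regions gathered at Irf4. Of its 83 regions 27 were higher (32.5%) and 3 lower (3.61%), and 17 of the 27 were at Irf4. Without Irf4, 10 of 59 were higher (16.9%). At an Irf4 region inside Exoc2, BM had 0.979 and 0.736 CPM, pancreas 3.65 and 3.99, lung 6.74 and 6.62, LI 6.97 and 6.39, and SI 4.38 and 7.66 (1.83 ± 0.24, adjusted p = 8.41e-05). Within the shared gate this difference was 0.81 (adjusted p = 0.0738). Ifngr1, a chain of the interferon gamma receptor, had a higher intron (1.16 ± 0.30). Its libraries overlapped, and it did not pass within the shared gate (0.62, adjusted p = 0.373). A region near the interferon-induced Ifit1 was lower (−2.09 ± 0.42), with 12.1 and 4.60 CPM in BM and at most 1.06 in each other library.

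Regions of the aryl hydrocarbon receptor (AHR) pathway, which senses dietary and microbial ligands, were higher in 13 of 42 cases (31.0%) and lower in 0. Of the 13, 8 were at Ahr itself. The Ahr region with the smallest p, an intron 14317 bp from the start site, had 11.6 and 10.2 CPM in LI and 6.26 and 10.2 in SI. Lung had 1.06 and 1.05 CPM there, within the range of BM (0.489 and 0.966) and pancreas (1.12 and 1.40), so the difference of 2.25 ± 0.27 (adjusted p = 5.49e-05) came from the intestine. The promoter of Ahrr, the AHR repressor, had the same form, with 11.9 to 16.9 CPM in the intestine and 1.29 to 2.23 in lung, BM and pancreas (2.0 ± 0.23, adjusted p = 3.27e-05). At Ikzf3, which encodes Aiolos, the region with the smallest p did not pass (0.78 ± 0.30, adjusted p = 0.0842), with 3.49 and 8.78 CPM in LI, 5.54 and 7.28 in SI, and 1.13 to 3.45 elsewhere.

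Among type 2 cytokines and effectors, 12 of 93 regions were higher and 13 were lower, 12.9% and 14.0%. Il10, an anti-inflammatory cytokine, held 9 of the 12, with 7 of its 11 regions higher in every pair. An Il10 intron had 0.489 and 1.06 CPM in BM, 2.0 and 1.62 in pancreas, 3.37 and 3.06 in lung, 6.80 and 4.78 in LI, and 29.8 and 9.44 in SI (2.57 ± 0.34, adjusted p = 9.94e-05). A region near Il13, the cytokine of mucus production and goblet cell change, had 3.96 and 2.95 CPM in BM, 11.5 and 9.06 in pancreas, 13.4 and 22.3 in lung, 21.7 and 32.8 in LI, and 40.1 and 55.4 in SI (2.26 ± 0.20, adjusted p = 5.67e-06). The sides did not overlap at the Il10 intron or at this Il13 region, and BM was the lowest tissue at both. Of the 9 Il13 regions 2 were higher and 2 lower, and in every pair 1 was higher and 2 were lower. Lta had a higher region (0.80 ± 0.15), and Arg1, which encodes arginase 1, a lower one (−0.69 ± 0.20).

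Receptors for alarmins and cytokines leaned the other way, with 7 of 113 regions higher (6.19%) and 29 lower (25.7%), 14 of the 29 at Il1rl1. Only 2 of the 19 Il1rl1 regions were lower in every pair. Il1rap, the shared signalling chain of the IL-1 and IL-33 receptors, had an intron with 6.07 and 6.67 CPM in BM, 4.53 and 7.12 in pancreas, 2.86 and 2.1 in lung, 2.70 and 3.08 in LI, and 1.25 and 1.78 in SI (−1.44 ± 0.23, adjusted p = 4.45e-04). An exon of Il4ra, the IL-4 receptor chain, was lower too (−1.03 ± 0.21). Regions nearest Il17ra, inside Kdm5a (1.74 ± 0.33), and Il2rb (1.05 ± 0.24) were higher. In the ILC2 identity list, which shares Il1rl1, Il2ra, Il7r and Il17rb with the receptors, 12 of 163 regions were higher and 35 were lower (7.36% and 21.5%). Named members were a region far downstream of Icos (−0.73 ± 0.17), an intron of Rora (−0.92 ± 0.18), an intron of Ptprc (0.97 ± 0.31) and a region near Il2ra (−0.90 ± 0.28). The Rora region, with 12.3 and 17.7 CPM in BM, 22.2 and 23.8 in pancreas and 4.77 to 12.3 in the mucosal libraries, also passed within the shared gate (−1.0, adjusted p = 0.00197).

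Lipid mediator genes had 5 of 74 regions higher and 15 lower (6.76% and 20.3%), and 8 of the 15 were at Alox5, which encodes 5-lipoxygenase of leukotriene synthesis. Its named intron had 3.38 and 2.90 CPM in BM, 3.47 and 5.39 in pancreas, 2.08 and 3.28 in lung, 0.262 and 1.22 in LI, and 1.11 and 1.05 in SI, so lung overlapped the internal libraries (−1.47 ± 0.33, adjusted p = 0.00465). Ptgdr2, the prostaglandin D2 receptor CRTH2 (−0.66 ± 0.17), Ltb4r1, a leukotriene B4 receptor, within Adcy4 (−0.75 ± 0.16), and Ptgir, the prostacyclin receptor (−0.79 ± 0.15), also had lower regions. Of the retinoid and vitamin D genes, 4 of 78 regions were higher and 18 lower (5.13% and 23.1%). A region near Dhrs3, a retinaldehyde reductase, had 9.54 and 11.3 CPM in BM, 3.77 and 3.67 in pancreas, and 0.674 to 2.51 in the mucosal libraries (−2.0 ± 0.30, adjusted p = 2.97e-04). The retinoid receptors Rxra (−1.49 ± 0.34) and Rarb (−1.42 ± 0.33) had lower introns, and the vitamin D receptor Vdr had a higher region (0.93 ± 0.22).

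Residency and adhesion genes had 32 of 204 regions higher and 18 lower (15.7% and 8.82%). Itgae, the CD103 integrin chain that binds epithelial E-cadherin, had an intron with 3.33 and 3.13 CPM in BM, 2.83 and 3.99 in pancreas, 7.25 and 10.5 in lung, 7.67 and 6.86 in LI, and 4.81 and 9.27 in SI (1.23 ± 0.23, adjusted p = 0.00155). It passed within the shared gate as well (1.27, adjusted p = 0.0121), and 3 of 4 Itgae regions were higher in every pair. A region nearest Hic1, a transcriptional repressor, inside Smg6 had 2.91 to 4.42 CPM in the internal libraries, 7.84 and 8.47 in lung and 18.7 to 28.8 in the intestine (2.13 ± 0.19, adjusted p = 5.33e-06). A region near Rgs1, a regulator of G protein signalling that dampens chemokine responses, was higher (1.95 ± 0.23), and an intron of Cd9, a tetraspanin, was lower (−2.21 ± 0.35, and −1.14 within the shared gate, adjusted p = 0.347). Among homing receptors 18 of 142 regions were higher and 19 lower (12.7% and 13.4%). A region at the chemokine receptor Cx3cr1 was lower (−0.81 ± 0.17), one of 3 lower regions among its 5. At Ccr1, 2 of 16 regions were higher and 2 lower, and the named one was lower (−1.44 ± 0.27). At Cxcr4, the receptor that holds cells in BM, 6 of 23 regions were higher and 2 lower.

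TGF-beta and SMAD genes lay near the shares of all regions, with 14 of 127 higher and 8 lower (11% and 6.30%). At Smad3, a signal transducer of the pathway, 0 of 28 regions were higher and 5 were lower. The named regions, all higher, were at both receptor chains, Tgfbr1 (1.05 ± 0.25) and Tgfbr2 (0.83 ± 0.24), and at their regulators Smurf2 (1.29 ± 0.24) and Ski (0.93 ± 0.22). Costimulation and checkpoint genes had 20 of 119 higher and 8 lower (16.8% and 6.72%). In every pair 6 were higher and 2 lower (5.04% and 1.68%), against 4.49% and 4.52% of all regions. The Cd96 promoter had 8.14 to 11.4 CPM in the internal and 15.7 to 29.9 in the mucosal libraries (1.07 ± 0.18), and Ctla4, an inhibitory receptor, had an intron with 17.6 and 8.64 CPM in SI, 5.40 and 5.82 in LI, 3.65 and 1.82 in lung, and 0.736 to 1.83 in the internal libraries (2.2 ± 0.30). Lung replicate 2 overlapped the internal libraries there, and the call was lost within the shared gate (1.32, adjusted p = 0.0649). A region nearest Cd226, inside Dok6, was lower (−1.54 ± 0.38). Of the neuropeptide and adrenergic receptor genes, 11 of 67 regions were higher and 8 lower (16.4% and 11.9%). At Ramp1, 5 of 10 regions were lower and 0 higher, and at Vipr2 5 of 12 were higher and 1 lower. A Vipr2 intron, at a receptor for vasoactive intestinal peptide, had 1.42 and 1.10 CPM in BM, 2.36 and 4.96 in pancreas, 12.8 and 20.5 in lung, 8.80 and 10.6 in LI, and 5.20 and 9.20 in SI (2.32 ± 0.27, adjusted p = 3.73e-05). A region nearest Chrna9, a nicotinic receptor subunit, had a smaller difference (0.60 ± 0.18). Libraries of the 2 sides overlapped at the Chrna9 region, and it did not pass within the shared gate (0.32, adjusted p = 0.473).

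AP-1 and immediate early genes had 11 of 165 regions higher and 14 lower (6.67% and 8.48%). Regions near Egr2 (1.24 ± 0.23) and Nr4a3 (0.98 ± 0.17) were higher, and regions near Dusp5 (−1.19 ± 0.30) and Egr1 (−1.02 ± 0.31) were lower. NF-kappaB and feedback genes had 8 of 111 higher and 6 lower, with Nfkb1 (0.62 ± 0.17) and Nfkbia (−0.44 ± 0.13) named. Both genes were mixed, with 2 higher and 4 lower of 29 regions at Nfkb1 and 2 higher and 1 lower of 10 at Nfkbia. Neither named region passed within the shared gate (adjusted p = 0.298 and 0.352). Of 24 heat shock regions 0 were higher and 1, near Hsph1, was lower (−2.91 ± 0.43, and −1.77 within the shared gate, adjusted p = 0.262), with 9.69 and 4.33 CPM in BM and 0.824 and 1.94 in pancreas.

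**Figure D4:**
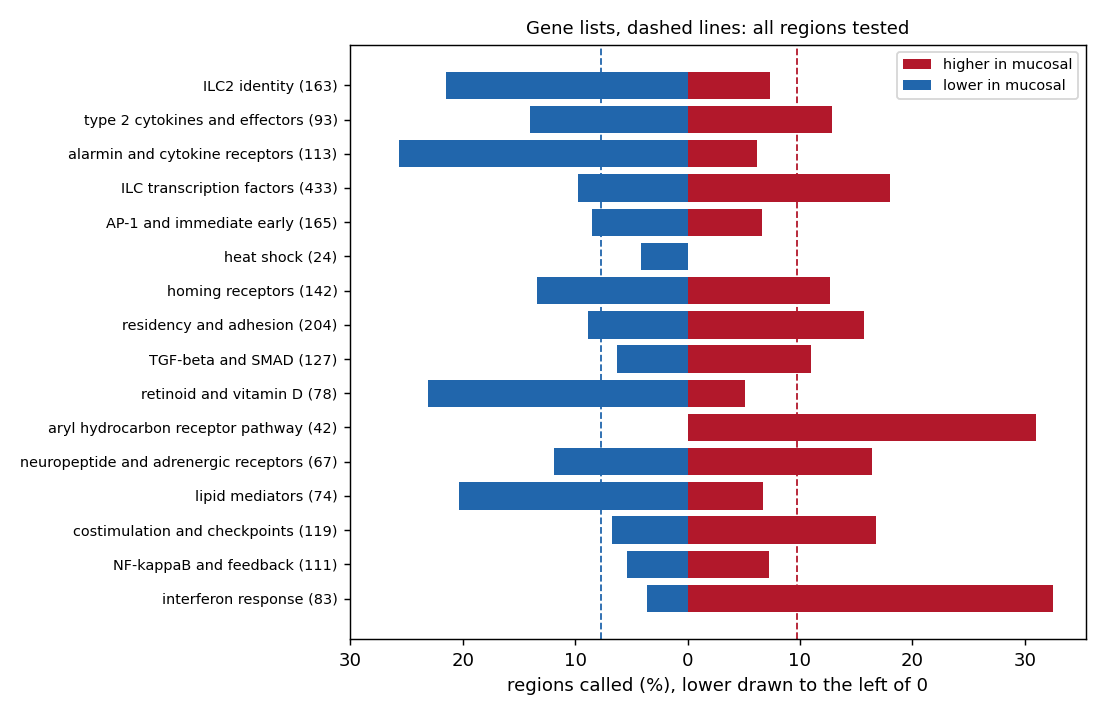
Share of the regions of each gene list called higher (red, to the right) or lower (blue, to the left) in mucosal ILC2s, with the number of regions in brackets. Dashed lines mark the shares over all tested regions, 9.71% and 7.67%. Among the 16 lists drawn, interferon response (32.5%) and AHR (31.0%) extend farthest to the right, and alarmin and cytokine receptors (25.7%) and retinoid genes (23.1%) farthest to the left.

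Marker genes of other cells also held differences. Of 14 regions of ILC3 markers 7 were higher and 0 lower, and 5 were higher in every pair. Near Il17a, a cytokine of ILC3s that some ILC2s also make, a region had 2.01 and 2.58 CPM in BM, 1.77 and 1.19 in pancreas, 6.90 and 6.85 in lung, 8.72 and 10.6 in LI, and 5.01 and 9.30 in SI (2.06 ± 0.24, adjusted p = 4.31e-05). The other named regions were near Il17f (1.41 ± 0.33) and Ccr6 (1.78 ± 0.33) and in Il1r1 (1.08 ± 0.20). Among the remaining lists, a lower region was named at Ifng (−0.98 ± 0.19), Il5ra (−1.59 ± 0.30), Adgre1 (−0.75 ± 0.23), Cldn4 (−1.60 ± 0.38), Kdr (−0.68 ± 0.14) and the Hbb-bt promoter (−2.67 ± 0.45). At Kit, a receptor of progenitors, 8 of 22 regions were higher and 2 lower (median 0.40), and the named region was one of the lower ones, with libraries that overlapped (−2.14 ± 0.41, and −1.19 within the shared gate, adjusted p = 0.302). Higher regions were named at Cd3e (0.93 ± 0.30), Prg2 (1.74 ± 0.56) and Pecam1 (0.79 ± 0.25), each with libraries that overlapped. At Prg2, SI replicate 1 had 30.4 CPM and the other mucosal libraries 0.414 to 6.45. None of the regions named from these remaining lists, higher or lower, passed within the shared gate. The part of other cell types in the contrast was not tested.

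Sequence motifs were counted as exact strings on either strand, outside promoters, over regions of nearly equal width (median 526 bp in all, 532 bp in the higher and 518 bp in the lower set). A match is a description of the sequence and not a binding site. The GATA string AGATAA was in 30.6% of all 40352 regions, 28.6% of the 4616 higher and 52.6% of the 3554 lower ones. Its other form, TGATAA, was in 22.9%, 23.2% and 38.2%. Either form was in 44.7%, 44.1% and 70.7%. Regions without a GATA string were called lower in 4.66% of cases, those with 1 in 10.8% and those with 2 or more in 19.6%. Either form was in 45.4% of the higher and 63.8% of the lower regions when BM was left out, in 46.4% and 64.1% within the shared gate, and in 45.5% and 73.8% without BM replicate 1 and pancreas replicate 2.

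RUNX strings were more frequent in the higher regions. TGTGGTT was in 21.3% of all, 31.4% of the higher and 19.9% of the lower regions. Without BM the shares were 35.4% of the 996 higher and 20.8% of the 2675 lower regions, and within the shared gate they were 31.2% and 21.0%. The ROR string ANTAGGTCA was rarer, in 1.95% of all, 3.70% of the higher and 1.60% of the lower regions, and in 5.02% and 1.68% without BM. NF-kappaB strings, written GGGANTTTC, were in 3.57%, 5.70% and 2.31%, and IRF strings, GAAANTGAA, in 5.36%, 7.28% and 4.39%.

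AP-1 strings changed sides with the tissues compared. TGANTCA was in 28.4% of all, 41.9% of the higher and 26.3% of the lower regions. Without BM it was in 31.4% of the higher and 44.6% of the lower regions, and within the shared gate in 35.5% and 43.2%. The NR4A string AAAGGTCA, which shares the letters AGGTCA with the ROR string, moved likewise, from 7.08% of the higher and 2.73% of the lower regions to 3.41% and 5.83% without BM. The part of tissue digestion in these shares was not tested. CTCF strings, AGGGGGCGC, were scarce in both directions, in 1.86% of all, 0.347% of the higher and 0.563% of the lower regions. The SP string GGGGCGGGG was likewise in 6.11%, 3.25% and 2.90%. Among the other 13 strings, the E-box string CAGCTG was in 29.9%, 31.1% and 30.2% and the STAT string TTCNNNGAA in 15.9%, 17.1% and 16.9%.

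**Figure D5:**
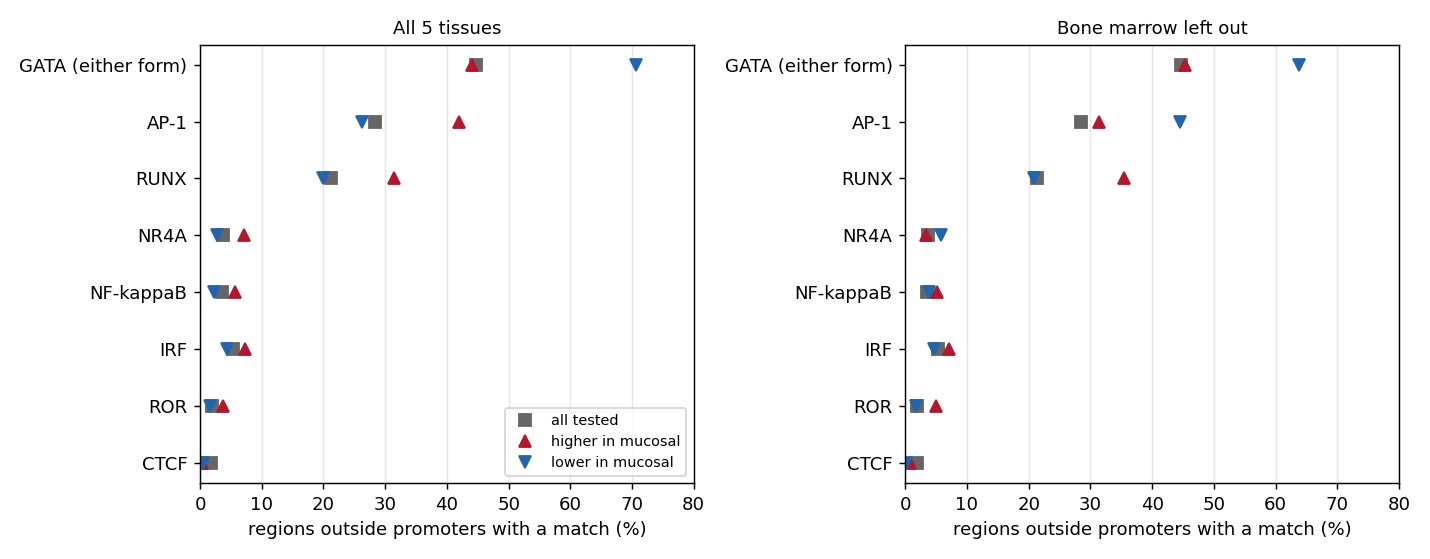
Share of regions outside promoters with a motif string, for all tested regions (grey), regions higher (red) and regions lower (blue) in mucosal ILC2s, with all 5 tissues (left) and with BM left out (right). GATA stays on the lower side at 70.7% and 63.8% and RUNX on the higher side at 31.4% and 35.4%, whereas AP-1 goes from 41.9% of the higher regions to 44.6% of the lower ones.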

How the data were processed

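ATAC-seq libraries of ILC2s from 5 tissues, 2 per tissue, were grouped by the tissue in their labels. The authors aligned reads to mm10 with Bowtie2 (2.2.9) and retained unique alignments. Peaks from MACS2 (2.1.1) that recurred in the duplicates were joined over the tissues, and raw counts per region were deposited, without normalization. Whether PCR duplicates or mitochondrial reads were dropped, or ends moved for the transposase, is not given in the sources used here. PCR copies are not independent molecules, and counting error covers only part of the error.

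Regions with at least 1 count were fitted with edgeR 4.0.16 (TMM, glmQLFit, glmQLFTest) with tissue as factor in a common fit of the 10 libraries. The contrast was the mean of lung, LI and SI minus the mean of BM and pancreas, with Benjamini-Hochberg adjustment over all regions and a threshold of 0.05. SE was derived from the F statistic, and CPM used TMM library sizes. The methods call the replicates biological duplicates of pooled mice, and the p-values set the contrast of tissues against the spread between these replicates. Steps were tested on simulated data.

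Regions were annotated from RefSeq curated transcripts of GRCm38, whose chromosome names and lengths fit the table. A region counted as a promoter where its centre lay within 1000 bp before or 100 bp after a start site. Printed sequences are from the same RefSeq assembly. Members and lists were chosen with earlier results of these data known. Named regions are the 8 with the largest smallest pair difference per direction, 1 per nearest gene, up to 4 genes per list by the same measure, the promoter with the most counts of each identity gene and of each marker list, and the region with the smallest p at Ikzf3 and Ahr. Loci, leading promoters and the erythroid list were added after values had been seen. Alternatives were other scalings, filters, thresholds and units, DESeq2 1.42.0, a replicate block, a GC trend removed, and libraries or tissues left out. Some named regions are not reported here.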

Additional observations from a re-analysis of the deposited data

Results flagged for a closer look

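Of 34 sets of library values checked for a library far from the others of its side (8 leading regions per direction and the share of counts at promoters), 2 had one, where chance gives about 1 in 20. LI replicate 1 was the highest of the 6 mucosal libraries at the lower regions near Cep135 (1.66 CPM) and in Agpat4 (0.610 CPM). At the promoters of Klrg1 and Il2ra every mucosal library lay above both BM libraries and below both pancreas libraries, so that the difference from BM and the difference from pancreas had opposite signs. The difference of these effects was not tested. The log2 difference of the whole contrast was 0.83 at Klrg1 and −0.08 at Il2ra.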

How the results depend on the processing

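Counts are given in the order higher, lower, higher in every pair and lower in every pair, with 4853, 3834, 2245 and 2257 as reported. Scaling by library size alone gave 7554, 2702, 4115 and 1479 and moved the median log2 difference of all regions from 0.00 to 0.15. Single libraries left out gave 2633 to 5693, 2508 to 4913, 1340 to 2411 and 1533 to 2459. Counts changed by over 1.5 times without pancreas replicate 1 (2633 and 1340 higher), BM replicate 2 (3186 higher) and pancreas replicate 2 (2508 lower). Without BM they were 1069, 2793, 977 and 2477, without pancreas 7792, 6538, 7168 and 6275, and without lung 6281, 4042, 5080 and 3217. Within the shared gate and sorter they were 1041, 1677, 1010 and 1633, and among pools of 16 mice 4114, 3780, 3578 and 3693. Leaving out BM replicate 1 and pancreas replicate 2 together, chosen after seeing the data, gave 2404, 1450, 1494 and 1007. Tissue sums gave 0 in all 4 (edgeR, 1408 higher and 1600 lower at an unadjusted p under 0.05), and a factor of 2 levels 146, 208, 146 and 208. A log2 difference above 1 left 2211, 1754, 1178 and 1265, and unadjusted p-values gave 8064 and 6706 in the first 2. The replicate block gave 4941, 3982, 2248 and 2309, and same-numbered libraries correlated between −0.218 and 0.196, so the numbers were not taken as pairs. The filter at 10 counts removed no region. With a GC trend removed the counts were 4557, 4444, 2269 and 2573, a shift from higher toward lower. Other settings stayed within 1.5 times. The cause of these shifts was not tested, beyond fewer libraries in some.

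The 119 named regions were refitted 3213 times: 2680 kept direction and side of the threshold, 483 lost the call, 13 gained it and 37 changed sign. Sign changes were mostly at promoters without a call. With BM left out the log2 difference was −0.53 at Klrg1, 0.13 at Icos, 0.00 at Cebpa, 0.22 at Il1r1, −0.07 at Cd93 and 0.08 at Meis1. Within the shared gate it was −0.51 at Klrg1, 0.18 at Icos, 0.06 at Cebpa, 0.63 at Il1r1, −0.01 at Cd93 and 0.11 at Meis1. Among pools of 16 mice it was 0.02 at Il1rl1, 0.06 at Icos, 0.15 at Areg, −0.01 at Ebf1, −1.20 at Prf1, −0.26 at Cd93 and −0.66 at Ikzf3. Without pancreas it was 0.31 at Il2ra, −0.43 at Prf1 and −0.04 at Elf3. Without SI it was 0.04 at Il2ra, 0.03 at Icos, 0.19 at Il1r1 and −0.19 at Prf1, and without LI −0.03 at Prf1 and −0.08 at Cd93. Library size alone gave 0.07 at Il2ra, 0.12 at Icos and 0.03 at Meis1. Single libraries left out gave −0.17 to 0.09 at Icos, −0.03 to 0.44 at Prf1 and −0.22 to 0.02 at Meis1. The share of counts at promoters differed by 1.66 points with promoters of 1000 bp on both sides (exact permutation p = 0.70) and by −0.371 to 2.09 points with single libraries left out, negative without pancreas replicate 2.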
